A study of Mus musculus with 4 samples.

Results

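The proteasome genes were taken as every gene symbol made of Psm, a letter from a to g and a number, leaving out symbols with a -ps suffix, and 50 of the 24421 genes in the matrices fitted that rule. They comprised the 14 standard subunits of the 20S core, the 3 immunoproteasome subunits, 17 subunits of the 19S regulatory particle, 5 activators and 8 assembly factors or inhibitors. Another 2 were the tissue-restricted core subunits Psma8 and Psmb11. The symbol rule also took in Psmc3ip, a meiotic recombination factor that is not a proteasome subunit. In RefSeq on GRCm38.p6 the 50 genes lay on 16 chromosomes.

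Poly(A) RNA of epididymal adipose tissue, the visceral fat pad beside the testis, was sequenced from male C57BL/6J mice of WT genotype. The 2 control libraries (Ctrl) came from mice given high-fat diet (HFD) without a break for 14 weeks, starting at an age of 10 weeks. The 2 weight-cycling libraries (WC1) came from mice that entered at an age of 8 weeks and received HFD for 8 weeks, standard diet for 2 weeks and HFD for another 6 weeks. Both groups therefore had 14 weeks of HFD in total and reached an age of 24 weeks, and neither was a lean group. The labels do not say whether a library held 1 mouse or several, or whether the libraries of a group were separate preparations, so p-values measure only the spread between these 2 libraries per group.

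The proteasome degrades proteins that carry chains of ubiquitin. The 19S particle binds the chain, removes it and uses ATP to unfold the protein, which then enters the barrel of the 20S core, where beta subunits cut it into peptides. In immune cells and under interferon, the catalytic beta subunits are replaced by inducible partners, and this immunoproteasome supplies peptides to major histocompatibility complex (MHC) class I molecules. In fat, brown adipocytes in particular, the transcription factor Nfe2l1 is known to keep proteasome activity matched to the load of damaged protein.

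The libraries held 61465029 to 90965297 reads, so that 3 reads, taken as the limit that a count of 0 allows, corresponded to 0.0345 to 0.0492 CPM (CPM, reads scaled to library size as in the deposited matrix). These limits cover counting error only. Of all genes, 14106 reached 0.5 CPM in at least 2 libraries and were tested with limma on log2(CPM + 1), WC1 minus Ctrl. A gene was called at a Benjamini-Hochberg adjusted p under 0.05, and fold changes on this scale understate those of low genes. By this rule 10.2% of all tested genes were called higher and 7.71% lower, beside which the marker counts below stand. All 10 adipocyte markers were detected, and their summed level was 20791 to 22640 TPM (transcript abundance per length and library) in Ctrl and 38479 to 49985 TPM in WC1, with 7 of 10 called higher. The 10 macrophage markers, most of whose total came from Lyz2, summed to 14605 to 16057 TPM in Ctrl and 6961 to 9510 TPM in WC1, with 5 called lower and 0 called higher. Of these 10, 9 had a log2 difference below 0, and Cd163 was at 0.36 (limma adjusted p = 0.0909). The 7 endothelial markers summed to 243 to 284 TPM in Ctrl and 622 to 822 TPM in WC1, with 6 called higher. Of the 8 fibroblast markers 3 were called lower, and none of the 9 T and NK cell markers was called. B cell markers, of which 4 of 5 were tested and 1 was called higher, summed to 3.76 to 5.84 TPM in Ctrl and 11.0 to 37.1 TPM in WC1. Of the other lists, 1 of 5 erythroid markers, Hba-a1, was called higher. Its paralog Hba-a2 was at 179 and 188 CPM in Ctrl and 0.164 and 231 CPM in WC1, so how reads were divided between them is uncertain. None of the 6 mesothelial markers was called, and 5 of the 8 epididymis and testis markers were at 0 in every library. These markers moved with the same contrast as the proteasome genes, and their part in the results below was not tested. In bulk tissue, fewer cells of a type and less RNA per cell cannot be told apart.

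The 6 catalytic beta subunits fall into matched standard and inducible partners, and for Psmb5, Psmb6 and their inducible partners Psmb8 and Psmb9 the 250 bases before a RefSeq transcript start are shown, so that the start regions of partners can be compared. Sequences are from RefSeq on GRCm38.p6, written 5′ to 3′ on the gene's strand. Capitals mark a match to a motif on either strand. The motifs were TGACNNNGC, the core of the antioxidant response element that Nfe2l1 and Nfe2l2 bind, GAAA followed by any 2 bases and GAAA, the core of the interferon-stimulated response element, and TTCNNNGAA, the core of the gamma-activated site, known from interferon-responsive genes. Psmb5 (chr14:54617996-54618245, minus strand) held TGACGTCGC from 47 to 39 bases before the start. Psmb6 (chr11:70525107-70525356, plus strand) held TGACGGAGC from 9 to 1 bases before the transcript start used, which lies 33 bases inside the gene's outermost RefSeq start, so this match is within the gene. The windows of Psmb5, Psmb8 and Psmb9 end at the gene's outermost start. Psmb8 (chr17:34197945-34198194, plus strand) held TTCCCAGAA from 97 to 89 bases before the start. The window of Psmb9 (chr17:34187331-34187580, minus strand) held none of these 3 motifs.
Psmb5: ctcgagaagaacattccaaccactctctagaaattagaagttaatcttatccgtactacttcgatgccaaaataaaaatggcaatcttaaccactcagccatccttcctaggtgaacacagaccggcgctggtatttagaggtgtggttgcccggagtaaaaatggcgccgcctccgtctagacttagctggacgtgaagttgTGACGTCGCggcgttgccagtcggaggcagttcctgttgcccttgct
Psmb6: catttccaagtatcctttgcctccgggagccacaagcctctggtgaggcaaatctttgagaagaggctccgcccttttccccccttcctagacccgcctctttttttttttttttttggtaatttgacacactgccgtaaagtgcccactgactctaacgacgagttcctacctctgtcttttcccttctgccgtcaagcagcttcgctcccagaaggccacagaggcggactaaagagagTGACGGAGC
Psmb8: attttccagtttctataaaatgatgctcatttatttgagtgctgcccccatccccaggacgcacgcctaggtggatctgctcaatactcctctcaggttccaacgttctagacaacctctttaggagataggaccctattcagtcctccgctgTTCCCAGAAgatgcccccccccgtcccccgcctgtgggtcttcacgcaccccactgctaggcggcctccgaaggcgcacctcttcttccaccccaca
Psmb9: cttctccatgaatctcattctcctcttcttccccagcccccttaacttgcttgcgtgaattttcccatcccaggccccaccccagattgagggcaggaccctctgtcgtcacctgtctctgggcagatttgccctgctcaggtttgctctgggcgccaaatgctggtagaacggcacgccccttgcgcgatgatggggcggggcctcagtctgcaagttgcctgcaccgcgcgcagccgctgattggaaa

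A total of 45 windows was given for 42 of the 50 genes, 10 of them at a start inside the gene's outermost one, and the other 8 genes (Psma8, Psmb1, Psmb2, Psmb7, Psmc3, Psmd3, Psmd7 and Psmg2) are named only. The antioxidant response core occurred in 5 of the 45 windows (11.1%), those of Psmb5, Psmb6, Psmc6, Psmd9 and Psmd12, against 10.2% of all 32851 windows of that length. The interferon-stimulated core occurred in 3 (6.67%), those of Psmb3, Psmd4 and Psmd9, against 2.98% of all windows. The gamma-activated core occurred in 2 (4.44%), those of Psmb8 and Psmg1, against 7.02%. The CCAAT box, which NF-Y binds and which was also searched, occurred in 15 (33.3%) against 33.8%. A match is a description of letters and not a site.

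In CPM, 7 of the 14 standard core genes and 3 of the 17 genes of the 19S particle fell in WC1, and no gene of the immunoproteasome or the activators was called. The difference between these groups of genes was not tested. Of the 49 proteasome genes tested, 11 fell, against 7.71% of all genes called lower, and none rose, against 10.2% of all genes called higher. The 11 were the core subunits Psma3, Psma4, Psma5, Psma7, Psmb3, Psmb4 and Psmb5, the ATPases Psmc1, Psmc5 and Psmc6, and the assembly factor Psmd5. At an unadjusted p under 0.05, 29 (59.2%) were lower, against 18.9% of all genes, and 0 were higher, against 18.9% of all genes. Both edgeR and DESeq2 on the recovered reads also called 0 proteasome genes higher. Both WC1 libraries lay below both Ctrl libraries in CPM for 38 of the 49, against 36.6% of all genes, and above them for 3, against 32.7%. The log2 difference was below 0 for 41 in CPM, against 52.8% of all genes, and for 33 in TPM, against 35.1%. Its median in CPM was −0.24 over the 49 genes and −0.02 over all tested genes.

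The number of calls depended on single libraries and on the scaling. On leaving out 1 Ctrl library, hardly any tested gene was called, so the loss of calls there was not particular to proteasome genes. The median log2 difference of the standard core was −0.28 without Ctrl replicate 1 and −0.33 without Ctrl replicate 2, beside −0.30 with all libraries. Without Ctrl replicate 1 or without Ctrl replicate 2 no proteasome gene was called by limma, with 7 and 12 lower at an unadjusted p under 0.05, against 7.88% and 9.18% of all genes, and in these fits the lone control was assumed to vary like the WC1 libraries. Without WC1 replicate 1 the count was 24 lower, against 19.5% of all genes, and without WC1 replicate 2 it was 12, against 8.73%. In the TPM matrix, whose scaling moved the median of all genes to 0.10, limma called 3 lower (Psma5, Psmb3 and Psmb5), against 4.13% of all genes, and at an unadjusted p under 0.05 there were 12 lower and 4 higher, against 10.1% and 28.7% of all genes. edgeR called 7 lower against 7.14% of all genes, DESeq2 called 16 against 12.3%, and limma with a length trend removed called 5 against 6.86%. None of these 4 called a proteasome gene higher, against 14.6% of all genes in TPM, 10.5% by edgeR, 15.1% by DESeq2 and 9.75% with a length trend removed.

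**Figure D1:**
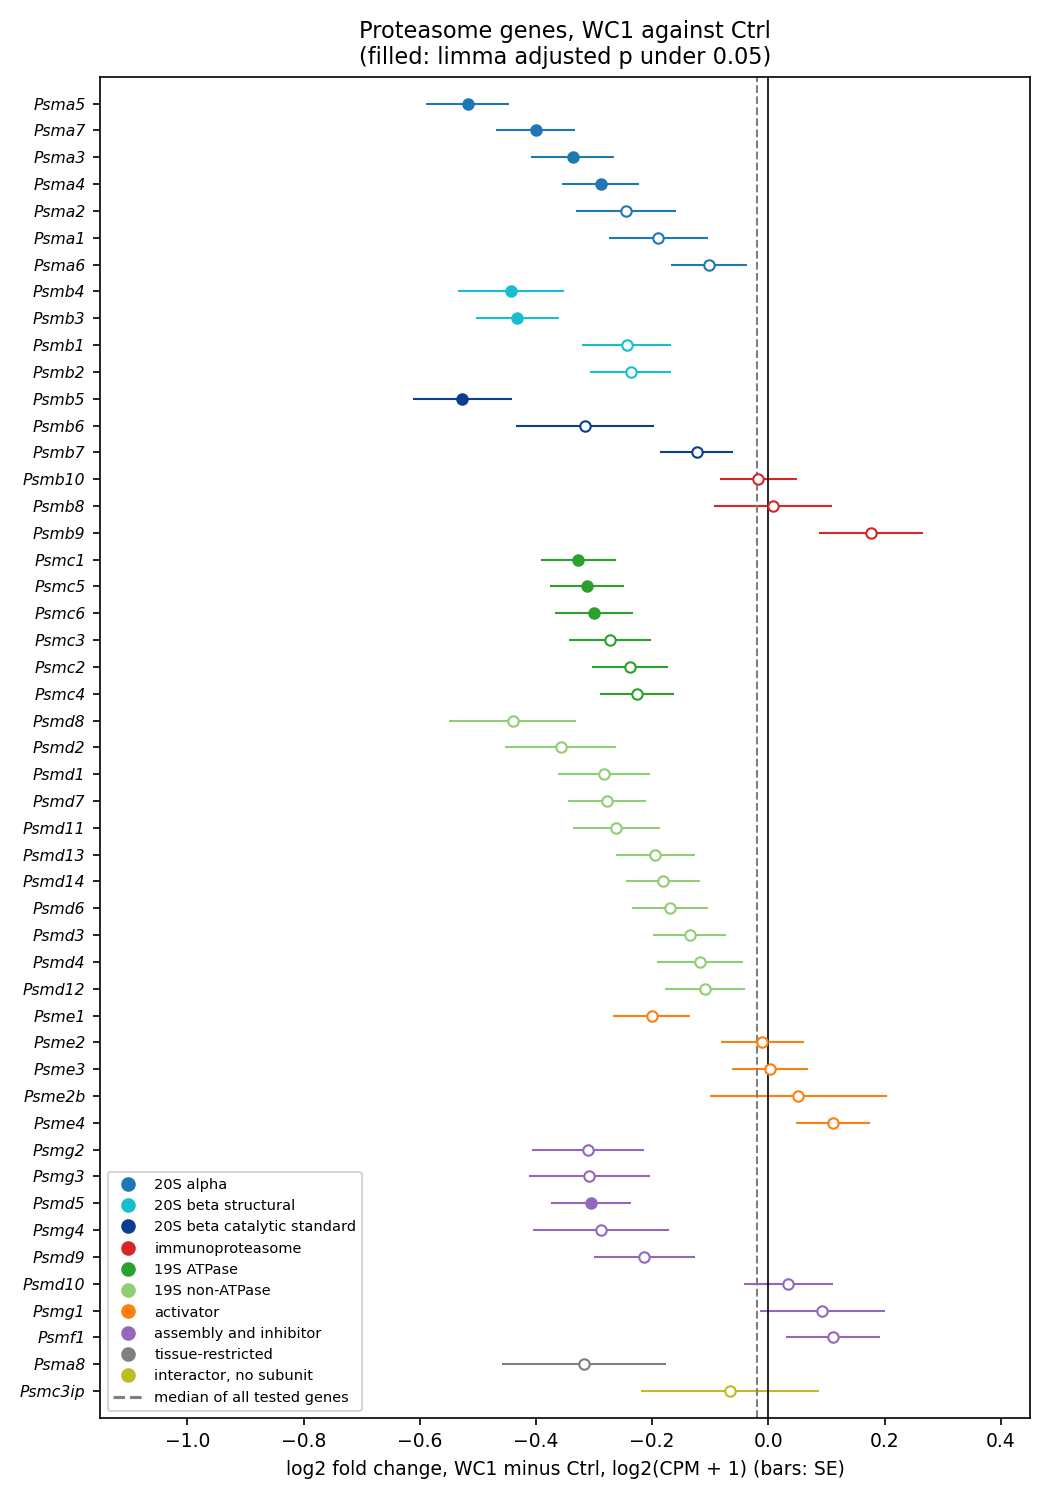
Log2 difference (WC1 minus Ctrl, on log2(CPM + 1)) of each tested proteasome gene, grouped by role, with bars for the SE and filled points for called genes. The genes of the standard core and the 19S particle lie below 0, between −0.53 and −0.10, while Psmb8 and Psmb10 lie near 0. Of the 41 genes below 0 here, Psma6, Psmb7, Psmb10, Psmd3, Psmd4, Psmd12, Psme2 and Psmc3ip lie above 0 in TPM.

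The alpha rings of the 20S core, whose subunits form the gate through which substrates enter, had 4 of 7 genes called lower, against 7.71% of all genes, with a median log2 difference of −0.29, against −0.02 over all tested genes. Psma5 was at 107 and 105 CPM in Ctrl and 76.5 and 71.0 CPM in WC1. Its log2 difference was −0.52 ± 0.071 (SE, limma adjusted p = 0.0194), the lowest of the alpha subunits, with a wide gap between the groups. Psma7 was at 156 and 148 CPM in Ctrl and 116 and 114 CPM in WC1, a log2 difference of −0.40 ± 0.068 (SE, limma adjusted p = 0.0264). Psma3 and Psma4 fell by 0.34 and 0.29 on the log2 scale, with limma adjusted p of 0.0390 and 0.0452. The remaining 3 alpha genes, among them Psma6 at 139 and 136 CPM in Ctrl and 131 and 126 CPM in WC1, were not called. The log2 difference of Psma6 was −0.10 (95% interval −0.27 to 0.07, limma adjusted p = 0.311), the smallest of the core, and it lay at 0.04 in TPM.

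The structural beta subunits, which hold the inner rings together without cutting, had 2 of 4 genes called lower, against 7.71% of all genes, and a median log2 difference of −0.34. Psmb3 was at 102 and 96.9 CPM in Ctrl and 75.7 and 71.1 CPM in WC1, and fell by 0.43 on the log2 scale (SE 0.072, limma adjusted p = 0.0253). Psmb4 was at 127 and 110 CPM in Ctrl and 85.7 and 88.0 CPM in WC1, and fell by 0.44 (SE 0.091, limma adjusted p = 0.0367). The Ctrl libraries of Psmb4 differed from each other by more than the WC1 libraries did, without reaching the WC1 range. Psmb2 was not called, at a log2 difference of −0.24 (limma adjusted p = 0.0749).

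Per length, the 14 standard core genes stood within a narrow band. Their group means in TPM ran from 167 to 368 in Ctrl, a ratio of 2.20 between the highest, Psmb6, and the lowest, Psma5, and from 128 to 327 in WC1, a ratio of 2.55. These subunits are present in equal copy number in an assembled standard core, in which no inducible or tissue-restricted subunit replaces one. Summed over the 14 genes, the level was 3787 and 3650 TPM in Ctrl and 3353 and 3277 TPM in WC1. The sum over the 17 genes of the 19S particle was 2629 and 2576 TPM in Ctrl and 2400 and 2378 TPM in WC1, so both sums separated the groups in this matrix too.

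Of the 3 standard catalytic subunits, 1 fell, against 7.71% of all genes called lower, and the differences between the 3 were not tested. Psmb5, on chr14:54614120-54617995, carries the chymotrypsin-like activity, the main cutting activity of the core and the main target of proteasome inhibitor drugs. It was at 130 and 116 CPM in Ctrl and 87.6 and 82.4 CPM in WC1, and its log2 difference of −0.53 ± 0.085 (SE, limma adjusted p = 0.0243) was the lowest of all 49 genes. Psmb6, the caspase-like subunit on chr11:70525324-70527858, was at 203 and 194 CPM in Ctrl and 177 and 143 CPM in WC1. Its log2 difference was −0.32 ± 0.12 (SE, limma adjusted p = 0.125), and it was not called. Its WC1 libraries lay far apart, though neither reached the Ctrl range. Without WC1 replicate 1 the log2 difference of Psmb6 was −0.47 and it was called, and without WC1 replicate 2 it was −0.16 and was not. Psmb7, the trypsin-like subunit on chr2:38588046-38643952, was at 124 and 126 CPM in Ctrl and 114 and 115 CPM in WC1, a log2 difference of −0.12 (95% interval −0.29 to 0.04, limma adjusted p = 0.218) that lay at 0.02 in TPM.

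None of the 3 inducible counterparts was called, beside 10.2% of all genes called higher and 7.71% called lower. Psmb8, which takes the place of Psmb5 and lies on chr17:34198195-34201454, was at 60.5 and 50.7 CPM in Ctrl and 55.5 and 55.9 CPM in WC1, so the WC1 values fell between the Ctrl values. Its log2 difference was 0.01 (95% interval −0.25 to 0.27, limma adjusted p = 0.961), and it was −0.12 without Ctrl replicate 2. Psmb9, which takes the place of Psmb6 and lies on chr17:34182030-34187330, was at 16.1 and 15.6 CPM in Ctrl and 17.3 and 18.9 CPM in WC1. The groups did not overlap, and the log2 difference was 0.18 (95% interval −0.05 to 0.41, limma adjusted p = 0.218). Psmb10, which takes the place of Psmb7 and lies on chr8:105935728-105938392, was at 51.2 and 51.0 CPM in Ctrl and 49.5 and 51.5 CPM in WC1. Its log2 difference was −0.02 (95% interval −0.19 to 0.15, limma adjusted p = 0.871), and it was at 0.12 in TPM. Psmb8 and Psmb9 lie in the MHC region beside the peptide transporter genes Tap1 (chr17:34187556-34197225) and Tap2, with 226 bases between the starts of Psmb9 and Tap1.

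In TPM the 3 inducible genes together were at 210 and 195 in Ctrl and 221 and 236 in WC1, where all 3 were higher in both WC1 libraries, as were 49.1% of all genes. Their share of the 6 catalytic genes was 18.8% and 18.3% in Ctrl and 21.4% and 23.8% in WC1. A ratio of partners within a library does not depend on how the library was scaled. The Psmb8 to Psmb5 ratio of TPM values was 0.331 and 0.311 in Ctrl and 0.451 and 0.483 in WC1, a log2 difference of 0.54. The Psmb9 to Psmb6 ratio was 0.102 and 0.104 in Ctrl and 0.126 and 0.170 in WC1, a log2 difference of 0.50 in which WC1 replicate 2 stood well above WC1 replicate 1. Without WC1 replicate 2 this difference was 0.28. The Psmb10 to Psmb7 ratio was 0.314 and 0.309 in Ctrl and 0.330 and 0.341 in WC1, a log2 difference of 0.11. In each of the 3 the WC1 values lay above both Ctrl values, and the exact permutation test over libraries gave p = 0.333 (two-sided), the smallest that 2 against 2 allows. Differences between the 3 partnerships were not tested.

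**Figure D2:**
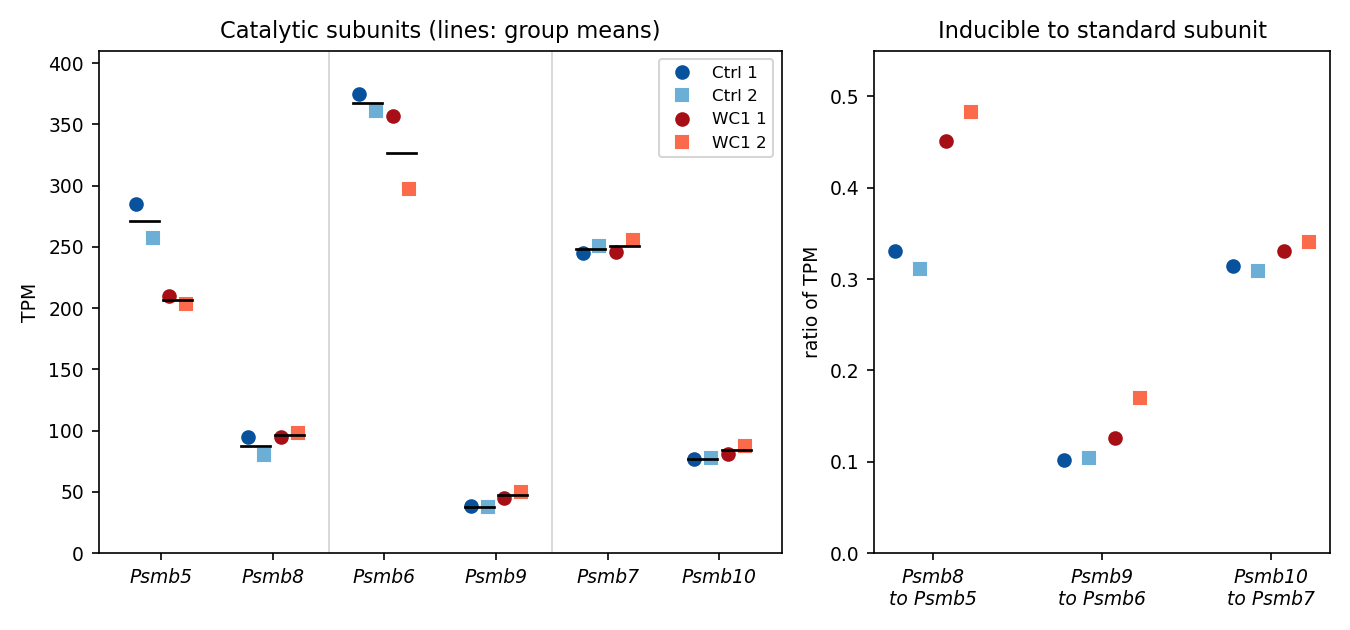
Levels of the 3 standard catalytic subunits and of the inducible subunits that replace them, in TPM, 1 point per library with lines at group means, and the ratio of each inducible subunit to its standard partner. Psmb5 is at 285 and 257 TPM in Ctrl and 210 and 204 TPM in WC1, while Psmb8 is at 94.5 and 80.0 TPM in Ctrl and 94.6 and 98.3 TPM in WC1.

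In the 19S regulatory particle, 3 of 17 genes fell and all 3 were ATPases of the ring that unfolds substrates, where 3 of 6 were called, against 7.71% of all genes. Psmc1 was at 128 and 129 CPM in Ctrl and 104 and 100 CPM in WC1, a log2 difference of −0.33 ± 0.064 (SE, limma adjusted p = 0.0339). Psmc5 was at 124 and 122 CPM in Ctrl and 100 and 97.5 CPM in WC1, and fell by 0.31 (SE 0.064, limma adjusted p = 0.0364). Psmc6 fell by 0.30 (SE 0.067, limma adjusted p = 0.0426). The 6 ATPases lay close together, from −0.33 to −0.23, with Psmc4 at the upper end (limma adjusted p = 0.0676), which was called without WC1 replicate 1 at −0.24.

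None of the 11 non-ATPase subunits was called, with 8 lower at an unadjusted p under 0.05, against 18.9% of all genes, and a median log2 difference of −0.19. Psmd8, a lid subunit, had the lowest value of the particle at −0.44 ± 0.11 (SE, limma adjusted p = 0.0533). It was at 260 and 246 CPM in Ctrl and 204 and 170 CPM in WC1, and the distance between the WC1 libraries was wide beside that of the controls. Psmd7, the partner of the deubiquitinase Psmd14 in the lid, was just outside the threshold at −0.28 (limma adjusted p = 0.0503). Leaving out either WC1 library brought both inside it, at −0.57 without WC1 replicate 1 and −0.31 without WC1 replicate 2 for Psmd8 and at −0.24 and −0.32 for Psmd7, as did DESeq2, and Psmd8 was also called with median-of-ratios scaling and with the replicate number as a block. Psmd12, another lid subunit, had the smallest difference at −0.11 (95% interval −0.29 to 0.07, limma adjusted p = 0.302), and in TPM it was at 0.03. That ATPases were called and non-ATPases were not does not show that they differed, since the difference was not tested.

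Across the core and the 19S particle, both WC1 libraries lay below both Ctrl libraries in CPM for 31 of 31 genes, against 36.6% of all genes, and 10 of them fell, against 7.71%. In TPM this held for 23 of the 31, against 21.7% of all genes, while 7 overlapped and Psma6 was higher in both WC1 libraries. The median log2 difference of the core was −0.30 in CPM and −0.16 in TPM, and that of the 19S particle −0.26 and −0.12. Relative to the median of all tested genes, which was −0.02 in CPM and 0.10 in TPM, the core lay at −0.28 and −0.26 and the 19S particle at −0.24 and −0.22. On the same footing the immunoproteasome lay at 0.03 and 0.05 and the activators at 0.02 and 0.04, so the distance between the groups of subunits changed little with the scaling while the position of 0 moved.

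**Figure D3:**
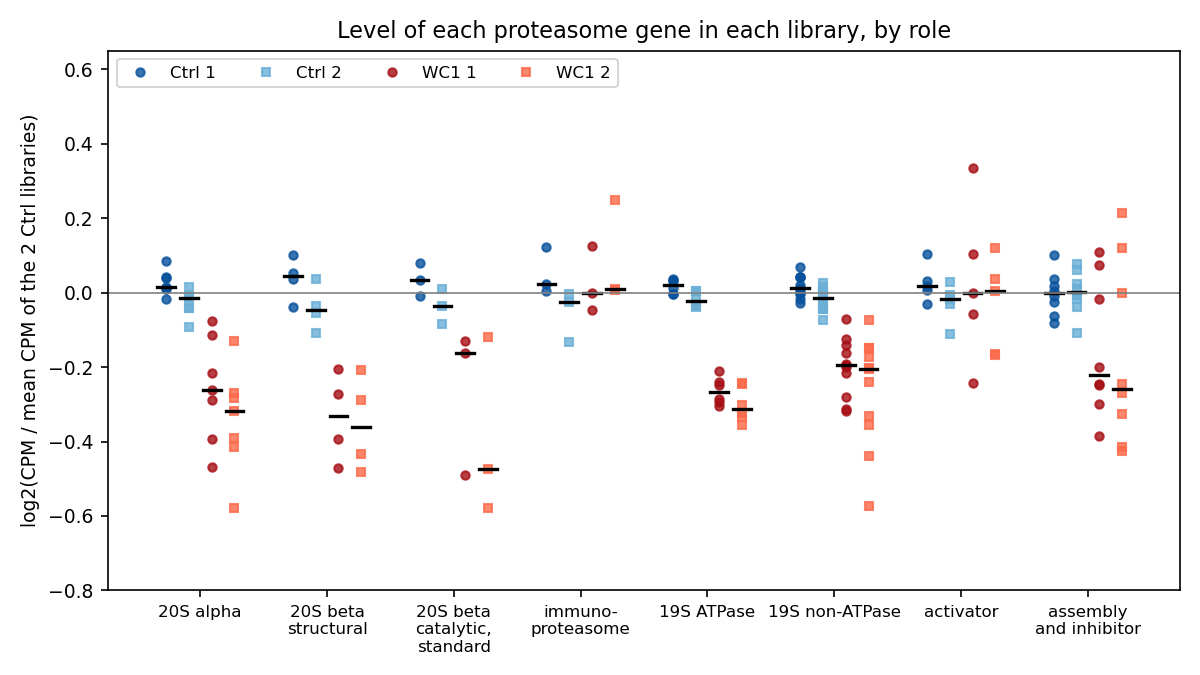
Level of each proteasome gene in each library in CPM, as the log2 ratio to the mean of the 2 Ctrl libraries, by role, with a black line at the median of each role. In the standard core and the 19S particle the WC1 libraries lie below the Ctrl libraries in CPM, as they do for 31 of 31 genes, while in TPM this holds for 23 of 31.

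The activators are caps that can bind the core in place of the 19S particle. None of their 5 genes was called, beside 10.2% of all genes called higher and 7.71% called lower. Psme1, which forms the interferon-inducible PA28 cap with Psme2, was at 89.9 and 89.1 CPM in Ctrl and 75.7 and 79.8 CPM in WC1. Its log2 difference of −0.20 ± 0.066 (SE, limma adjusted p = 0.0963) was of the size seen in the 19S particle, without overlap between the groups. Psme2 was at 104 and 99.7 CPM in Ctrl and 98.0 and 104 CPM in WC1, a log2 difference of −0.01 (95% interval −0.19 to 0.17, limma adjusted p = 0.932) that lay at 0.13 in TPM. The partners of this cap therefore had different values, in a pair of neighbouring genes on chromosome 14, and the difference between them was not tested. Psme3, the nuclear activator, was at 113 and 118 CPM in Ctrl and 116 and 116 CPM in WC1, a log2 difference of 0.00 (95% interval −0.17 to 0.17, limma adjusted p = 0.983). Psme4, an activator known from spermatogenesis and histone turnover, was at 103 and 100 CPM in Ctrl and 109 and 110 CPM in WC1, a log2 difference of 0.11 (95% interval −0.05 to 0.27, limma adjusted p = 0.262). The remaining activator symbol, Psme2b, stood at 1.02 to 1.44 CPM and closely resembles Psme2, so its reads are uncertain.

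Of the 8 assembly factors and inhibitors, 1 fell, near the 7.71% of all genes called lower, and 5 had both WC1 libraries below both Ctrl libraries in CPM, as had 36.6% of all genes. Psmd5, a chaperone that holds ATPases during assembly of the 19S base, was at 53.0 and 50.3 CPM in Ctrl and 41.9 and 41.2 CPM in WC1, and fell by 0.31 (SE 0.069, limma adjusted p = 0.0441). Psmg2, which helps build the alpha ring, was at 17.8 and 17.3 CPM in Ctrl and 14.8 and 13.2 CPM in WC1, a log2 difference of −0.31 ± 0.096 (SE, limma adjusted p = 0.0841) that was called without WC1 replicate 1, at −0.39. At the other end, Psmf1, an inhibitor of the core, was at 25.6 and 27.9 CPM in Ctrl and 28.8 and 29.1 CPM in WC1, a log2 difference of 0.11 (95% interval −0.10 to 0.32, limma adjusted p = 0.366). The group's median was −0.25 in CPM and −0.12 in TPM.

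The tissue-restricted subunits were low or at 0. Psmb11, the thymus subunit, had 0 reads in every library and was the 1 gene not tested. Psma8, the testis form of an alpha subunit, was at 1.39 and 1.82 CPM in Ctrl and 1.11 and 1.05 CPM in WC1, a log2 difference of −0.32 (limma adjusted p = 0.171). Psmc3ip was at 2.25 to 3.06 CPM, and its groups overlapped (log2 difference −0.07, limma adjusted p = 0.777, and 0.04 in TPM).

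**Figure D4:**
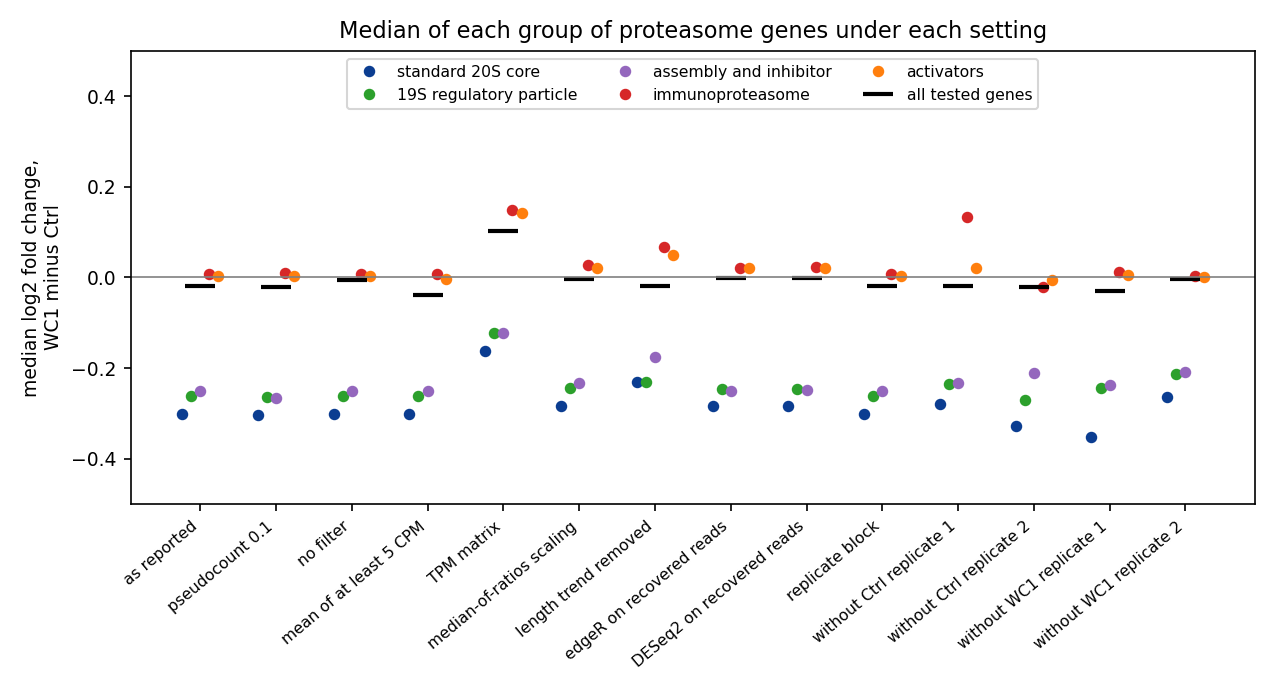
Median log2 difference of the 5 groups of proteasome genes under the reported setting and each of 13 alternatives. The medians of the standard core (−0.35 to −0.16), the 19S particle (−0.27 to −0.12) and the assembly factors and inhibitors (−0.27 to −0.12) stay below 0 in every one, and those of the immunoproteasome and of the activators fall on both sides of 0 between −0.02 and 0.15.

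Genes outside the Psm naming also work with the proteasome. Among 20 partners, the list of ubiquitin receptors, shuttles, deubiquitinases and assembly helpers, 1 rose and 2 fell, beside 10.2% and 7.71% of all genes. Usp14, a deubiquitinase that sits on the 19S particle and trims ubiquitin chains, was at 42.8 and 42.0 CPM in Ctrl and 80.6 and 70.6 CPM in WC1. It rose by 0.82 on the log2 scale (SE 0.087, limma adjusted p = 0.0139), opposite to the 10 subunits that fell. Pomp, which guides assembly of the beta ring and leaves the finished core, was at 109 and 103 CPM in Ctrl and 77.5 and 79.5 CPM in WC1, a log2 difference of −0.43 ± 0.067 (SE, limma adjusted p = 0.0235). Shfm1, the older symbol of the small lid subunit Sem1, was at 139 and 128 CPM in Ctrl and 105 and 90.7 CPM in WC1, a log2 difference of −0.45 ± 0.099 (SE, limma adjusted p = 0.0418). The lid subunit outside the Psm naming thus fell, while the ubiquitin receptor Adrm1 was at −0.06 (limma adjusted p = 0.589) and at 0.08 in TPM. Without Ctrl replicate 1 or without Ctrl replicate 2 none of the 3 was called, at log2 differences of 0.83 and 0.80 for Usp14, −0.39 and −0.47 for Pomp, and −0.39 and −0.51 for Shfm1. The call of Pomp was also lost in TPM, and that of Shfm1 with no filter, in TPM and with a length trend removed.

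Of 10 genes that control proteasome genes, 1 rose and 2 fell, again beside 10.2% and 7.71% of all genes. Nfe2l1, which drives transcription of the subunit genes when proteasome activity is short, was at 447 and 491 CPM in Ctrl and 619 and 710 CPM in WC1. It rose by 0.50 (SE 0.11, limma adjusted p = 0.0448), while 10 of the subunit genes fell. Its call was lost with no filter and with a length trend removed. Its relative Nfe2l2, the regulator of the oxidative stress response, was at 193 and 203 CPM in Ctrl and 162 and 148 CPM in WC1, and fell by 0.35 (SE 0.080, limma adjusted p = 0.0452), a call lost with no filter, in TPM and by edgeR. Mafg, a small partner with which both can bind DNA, was at 34.9 and 36.3 CPM in Ctrl and 22.9 and 21.0 CPM in WC1, a log2 difference of −0.67 ± 0.082 (SE, limma adjusted p = 0.0165). The other small partners listed were not called, with Maff at 0.31 (limma adjusted p = 0.155) and Mafk at −0.14 (limma adjusted p = 0.342). Among the 6 ubiquitin and E1 genes, Rps27a fell by 0.50 (SE 0.12, limma adjusted p = 0.0474), and none rose. This gene encodes ubiquitin fused to a ribosomal protein, and its call was lost with no filter, in TPM and with a length trend removed. Without Ctrl replicate 1 or without Ctrl replicate 2 none of these 4 genes was called, with log2 differences of 0.43 and 0.57 for Nfe2l1, −0.39 and −0.31 for Nfe2l2, −0.70 and −0.65 for Mafg, and −0.41 and −0.58 for Rps27a.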

How the data were processed

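The members and gene lists were chosen with earlier results of these data known. Reads were trimmed with fastp, aligned to mm10 with HISAT2 and processed with StringTie, per the submitters' processing notes; versions, the read counter and the annotation: not given in the sources used here. The authors deposited a matrix of gene signal named CPM, whose columns sum to 97.6 to 105% of the nominal total, and a matrix of TPM. The deposited CPM values were whole multiples of 1 read in 100% of cases (within 0.01 read), and edgeR's quasi-likelihood test on these recovered reads called 1476 genes higher and 1007 lower. The deposited TPM matrix differs from the CPM matrix by a factor per library and gene length.

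Here, genes with at least 0.5 CPM in 2 libraries (14106) were tested with limma 3.58.1 (abundance trend, two-sided) on log2(CPM + 1) in R 4.3.3, 2 WC1 against 2 Ctrl libraries, and p-values were adjusted over all 14106 by Benjamini-Hochberg. Libraries of a group differed beyond counting noise, at a chi-square of 33.9 (Ctrl) and 83.7 (WC1) for each degree of freedom. Genes named were the catalytic subunits, the activators, every called member, the smallest p and the extreme differences of each role, and, in other lists, called genes (at most 3) and 5 fixed genes. Alternatives were 13: pseudocount 0.1, no filter, a mean of 5 CPM, the TPM matrix, median-of-ratios scaling, a length trend, edgeR 4.0.16, DESeq2 1.42.0, a replicate block and leaving out each library. 1 gene of the class I list is not reported here. The fits were tested on simulated data. Promoter windows came from RefSeq on GRCm38.p6, the assembly of mm10.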

Additional observations from a re-analysis of the deposited data

How the results depend on the processing

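Of 143 values for the 11 called subunits and assembly factors under the 13 alternatives, 46 lost the call, 23 of them on leaving out 1 library, and 0 changed sign. Psma5, Psmb3 and Psmb5 kept the call under 11 alternatives. All genes called higher numbered 788 with no filter, against 1443, and 2 to 2424 on leaving out 1 library. All genes called lower numbered 532 with no filter, 583 in TPM, 1736 by DESeq2 and 4 to 2748 on leaving out 1 library, against 1088. Of all called genes, 57.0% were higher in CPM and 77.9% in TPM. Proteasome genes called lower numbered 6 with no filter, 3 in TPM, 5 with a length trend removed, 7 by edgeR and 0 to 24 on leaving out 1 library, against 11. Without a filter, 18132 genes entered the adjustment, and 2.93% of them were called lower, against 12.2% of the proteasome genes tested. The cause of the other changes was not tested.

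Medians in TPM were −0.16 for the core, 0.15 for the immunoproteasome, −0.12 for the 19S particle, 0.14 for the activators and −0.12 for assembly factors and inhibitors. With a length trend removed, they were −0.23 for the core, 0.068 for the immunoproteasome, −0.23 for the 19S particle and −0.17 for assembly factors and inhibitors. On leaving out 1 library they ran from −0.35 to −0.26 for the core, from −0.021 to 0.13 for the immunoproteasome and from −0.27 to −0.21 for the 19S particle. Genes near 0 changed sign. In TPM these included Psmd3 (0.0045), Psmd4 (0.022), Adrm1 (0.083), Psma6 (0.038), Psmb7 (0.016), Psmb10 (0.12), Psmc3ip (0.042), Psmd12 (0.030) and Psme2 (0.13). Psmb10 was 0.00094 with median-of-ratios scaling, 0.039 with a length trend removed, 0.0013 by edgeR and 0.0017 by DESeq2. Psme2 was 0.0082, 0.081, 0.0089 and 0.0094 in the same order, and Psmc3ip was 0.014 with a length trend removed. On leaving out 1 library, Psmb8 ran from −0.12 to 0.13, Psmb10 from −0.045 to 0.010, Psmc3ip from −0.23 to 0.093, Psme2 from −0.056 to 0.036 and Psme3 from −0.027 to 0.032.

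With the replicate number as a block, limma called 1769 genes higher and 1497 lower, and 13 proteasome genes lower, Psmd8 among them, and 0 higher. The within-group differences of same-numbered libraries correlated across genes at r = 0.19, and the labels give the numbers no further meaning, so the libraries are taken as sharing a number only. With 2 libraries per group, no value of a single gene can pass an exact test, and Psmb6, whose WC1 libraries lay far apart, was called in 1 of the 13 alternatives, without WC1 replicate 1.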

Other observations

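Genes of MHC class I antigen processing, the route that uses immunoproteasome peptides, had 3 of 14 called higher and 0 called lower, beside 10.2% and 7.71% of all genes, with a median log2 difference of 0.20 over the 14 against −0.02 over all tested genes. H2-Q7 rose by 0.88 (SE 0.11, limma adjusted p = 0.0165) and H2-Q6 by 0.97 (SE 0.16, limma adjusted p = 0.0245), while H2-Q4, named after its value was seen, rose by 0.70. The H2-Q genes are near-identical class I paralogs between which reads cannot be divided with certainty, so their counts are uncertain. Calls of H2-Q6 and H2-Q7 were lost without Ctrl replicate 1 or without Ctrl replicate 2. The log2 differences were then 1.04 and 0.90 for H2-Q6 and 0.79 and 0.98 for H2-Q7. Tap1, the transporter gene beside Psmb9, was at 35.4 and 33.7 CPM in Ctrl and 38.2 and 41.2 CPM in WC1, a log2 difference of 0.19 (limma adjusted p = 0.142), close to the 0.18 of Psmb9 itself.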
